A study of Rattus norvegicus with 4 samples.

Results

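The 10 genes described here form the negative limb of the circadian clock, the set of repressors that close its feedback loop, together with the output gene Dbp. They were taken by name: Per1, Per2, Per3, Cry1, Cry2, Nr1d1, Nr1d2, Dbp, Bhlhe40 and Bhlhe41. All 10 were found among the 14506 genes tested, each with 1 row of its own on the array. Retroperitoneal fat, a visceral depot, came from male WNIN/Ob rats aged 4 months, 2 of the lean and 2 of the obese phenotype. None had been treated, all had free access to stock diet and water, and all were kept under 12 hours of light and 12 hours of dark for 1 week before sampling. The lean rats were the controls for the obese rats of their own strain, and each rat gave 1 Affymetrix Rat Gene ST array. The hour at which the rats were killed is not given in the sources used here, and neither is the order in which they were killed.

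In most cells of the body the proteins BMAL1 and CLOCK, or CLOCK's relative NPAS2, bind E-box sequences and switch on the Per and Cry genes. PER and CRY proteins then gather and block their own activators, while the nuclear receptors REV-ERB alpha (Nr1d1) and REV-ERB beta (Nr1d2) repress Bmal1 in a second loop. BHLHE40 and BHLHE41, also known as DEC1 and DEC2, compete for E-boxes, and DBP carries the rhythm to D-box genes. White fat holds such a clock, and the messenger RNAs of most of these genes rise and fall over the day, Nr1d1 and Dbp with a particularly wide swing.

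Values are log2 intensities, where 1 unit is a doubling, and every difference is obese minus lean, with n = 2 rats per group. The chemosensory receptor genes of the array (187 of them), which fat does not use, served as a level near background. All 10 clock genes lay above the 95th percentile of these receptors on each array, except Cry1 on lean rat 2 (5.18 against 5.24). Adipocyte markers were present on every array, with a median of at most 10.8 and at least 10.01 over 12 genes. Skeletal muscle markers stood apart on lean rat 1. Of 18 listed, 16 were measured, with a median of 11.5 on lean rat 1 against 5.23 to 5.49 on the other arrays. Results that lean on lean rat 1 are therefore also given without it.

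None of the 10 genes passed limma's test between obese and lean rats at a Benjamini-Hochberg adjusted p under 0.05, where 0.841% of all genes did (122 of 14506). Bhlhe41 came nearest, at 2.42 times the lean level (difference 1.28 ± 0.27 SE, adjusted p = 0.084). Nr1d1 had the other wide difference, at -1.09 ± 0.43 (adjusted p = 0.291), or 0.47 times the lean level. At an unadjusted p under 0.05 these 2 genes stood out of 10, against 15.3% of all genes. The other 8 lay between -0.19 and 0.25. The median over the 10 genes was 0.04 and that over all genes was 0.00047. These arrays measure whole tissue, so a change in the share of a cell type and a change of RNA per cell cannot be told apart.

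**Figure D1:**
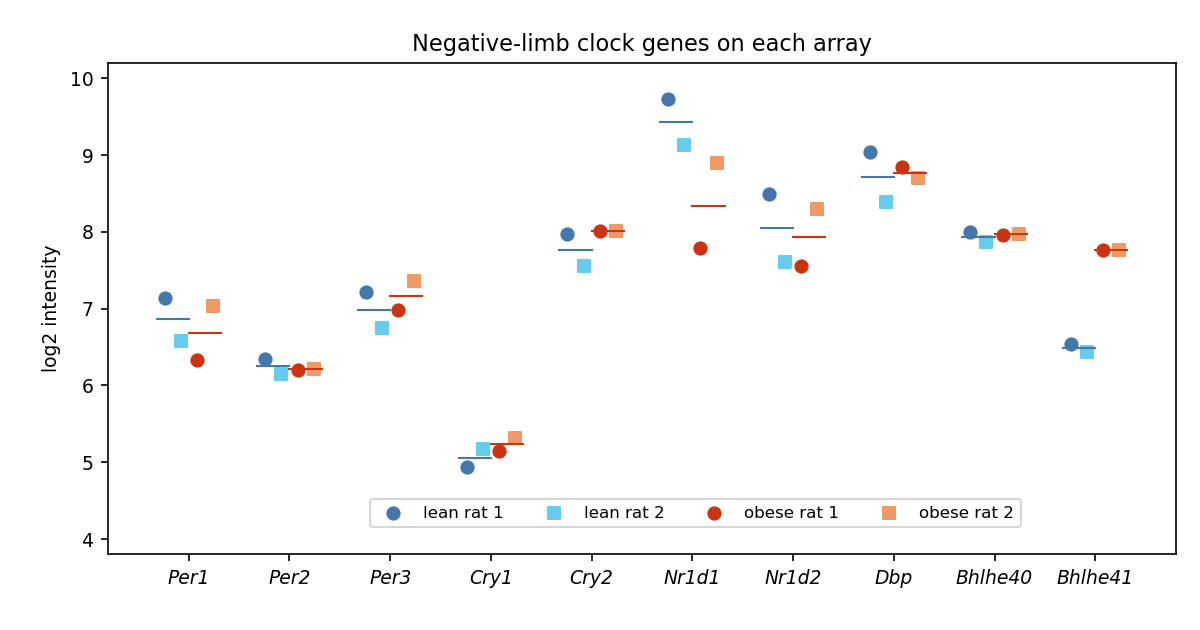
Log2 intensity (y axis) of the 10 negative-limb genes on each of the 4 arrays (points) with the group means as short lines, blue for lean and red for obese. Bhlhe41 has its 2 obese points at 7.76, over the lean points at 6.44 and 6.54, while the points of Nr1d1, Nr1d2 and Per1 spread widely within a group.

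The E-box repressors Bhlhe41 and Bhlhe40 are basic helix-loop-helix proteins that dampen BMAL1 and CLOCK. Bhlhe41 was at 6.54 in lean rat 1 and 6.44 in lean rat 2, and both obese rats were at 7.76. The groups did not overlap, and the rats of each group nearly coincided, with a 1.07-fold gap between the lean rats and a 1.00-fold gap between the obese rats. The 95% confidence interval of its difference ran from 0.66 to 1.89. Without lean rat 1, the array with the muscle signal, the difference was 1.32. Over all 4 arrays left out in turn it ran from 1.23 to 1.32. Under the alternatives that kept all rats limma's adjusted p was 0.051 to 0.129. Bhlhe40 was at 7.999 and 7.87 in the lean rats and at 7.96 and 7.97 in the obese rats. Its groups overlapped, and its difference of 0.03 ± 0.28 had a 95% confidence interval of -0.62 to 0.68 and turned to -0.12 with quantile normalization.

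The log2 ratio of Bhlhe41 to Bhlhe40 within an array was 1.24 higher in the obese rats (SE 0.017), higher in 2 of 2 obese rats than in either lean rat. The SE of each ratio given here came from its own 4 values, without the variance that limma shares over genes. It is therefore not comparable with the SE of a single gene. The two-sided exact permutation p was 0.333, the smallest that 4 rats allow (0.667 after Benjamini-Hochberg adjustment over the 6 pairs of related clock genes compared). Their promoters are shown because both hold the canonical E-box CACGTG, through which the clock and the 2 proteins themselves act. The windows are the 250 bases before the start site in RefSeq (GRCr8), 5′ to 3′ along the gene, with CACGTG in capitals. That of Bhlhe41 is at chr4:180569356-180569605, minus strand, and that of Bhlhe40 at chr4:143174200-143174449, plus strand.
Bhlhe41: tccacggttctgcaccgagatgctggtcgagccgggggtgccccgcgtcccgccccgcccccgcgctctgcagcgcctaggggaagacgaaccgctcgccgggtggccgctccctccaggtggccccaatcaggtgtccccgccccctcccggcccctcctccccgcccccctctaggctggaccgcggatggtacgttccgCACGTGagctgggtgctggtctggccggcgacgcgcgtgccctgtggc
Bhlhe40: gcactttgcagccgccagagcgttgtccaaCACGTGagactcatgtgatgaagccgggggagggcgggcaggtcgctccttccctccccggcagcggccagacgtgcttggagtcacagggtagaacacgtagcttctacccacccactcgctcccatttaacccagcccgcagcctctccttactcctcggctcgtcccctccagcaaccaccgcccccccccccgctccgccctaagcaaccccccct
The E-box began at position -48 from the start site in Bhlhe41 and at -220 in Bhlhe40. CACGTG was in 5.59% of 33469 promoter windows of this length. The match is a description of the letters and not a measured site.

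Macrophage markers were higher in the obese rats, as Bhlhe41 was. Of 12 macrophage markers, all measured, 5 rose and none fell by limma at an adjusted p under 0.05, where 0.841% of all genes passed. For 10 the obese rats were both above the lean rats, as they were for 26.4% of all genes. The 5 that passed were Lyz2 (3.92), Mpeg1 (2.71), Laptm5 (2.71), Itgam (2.30) and Fcgr1a (2.14). The summed macrophage signal was 11.9 and 11.6 on the log2 scale in the lean rats against 13.7 and 12.95 in the obese rats. With a rat left out the median difference of the 12 ran from 1.52 (without obese rat 1) to 2.04 (without obese rat 2). Between the obese rats 11 of the 12 were higher in rat 1, all but Cd163, and the gaps of the 12 ran from 1.05-fold (Cd68) to 2.34-fold (Lyz2), with a median of 1.57-fold. Bhlhe41 had the same level in both obese rats to 2 decimals. The part of these cells in the Bhlhe41 value was not tested. Lymphocyte markers (5 of 7 measured) had medians of 4.04 to 4.39, below the 95th percentile of the receptors on each array. Single markers above it numbered 1 and 0 in the lean rats and 2 and 2 in the obese rats, Cd3g on 3 arrays and Cd2 on both obese arrays.

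Over all genes, the 3 whose pattern across the 4 arrays lay closest to Bhlhe41 were Cyp2b2, Atp6v1b2 and Ly96. Closeness was the root-mean-square distance between log2 values centred on each gene's mean, which was 0.022, 0.031 and 0.041. Ly96, the MD-2 partner of Toll-like receptor 4, was among the called genes (1.30, adjusted p = 0.048). Atp6v1b2, a subunit of the vacuolar proton pump, was at 1.28 (adjusted p = 0.114). Cyp2b2, a cytochrome P450, was at 1.32 (adjusted p = 0.053), and since it has a near-identical relative in Cyp2b1 its identity is uncertain. With 4 arrays many genes can share such a pattern, and closeness is given as a description.

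The REV-ERB receptors Nr1d1 and Nr1d2 repress Bmal1 and are themselves driven by E-boxes. Nr1d1 was at 9.73 in lean rat 1 and 9.13 in lean rat 2, against 7.79 in obese rat 1 and 8.90 in obese rat 2. Neither obese rat reached a lean rat, but obese rat 2 was much nearer to lean rat 2 than to obese rat 1. The gap between the obese rats was 2.15-fold, and 0.758% of all genes had a wider one. The 95% confidence interval of the difference was -2.08 to -0.10. It shrank to -0.54 when obese rat 1 was left out (adjusted p = 1.00) and was -1.64 when obese rat 2 was (adjusted p = 0.092). Leaving out lean rat 1 gave -0.79 (adjusted p = 0.298), and leaving out lean rat 2 gave -1.39 (adjusted p = 0.226). Nr1d2 was at 8.50 and 7.60 in the lean rats and at 7.56 and 8.30 in the obese rats. Its groups overlapped, with a lean gap of 1.86-fold and an obese gap of 1.67-fold. Its difference was -0.12 ± 0.41, with a 95% confidence interval of -1.05 to 0.82, and it was above 0 without lean rat 1 (0.33) or without obese rat 1 (0.25).

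The log2 ratio of Nr1d1 to Nr1d2 was -0.97 in obese against lean rats (SE 0.23, lower in 2 of 2 obese rats than in either lean rat, exact permutation p = 0.333, the smallest possible, and 0.667 after adjustment over 6 pairs). The gene of the thyroid hormone receptor Thra overlaps that of Nr1d1 in RefSeq, and is known to be read from the opposite strand. Thra, named after its values were seen, was at 7.16 and 7.56 in the lean rats and at 6.61 and 7.12 in the obese rats, a difference of -0.50 ± 0.31 (adjusted p = 0.481). It was 1.32-fold higher in lean rat 2 than in lean rat 1, the reverse of Nr1d1. In obese rat 1 it was 1.43-fold lower than in obese rat 2, the same order as for Nr1d1.

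RefSeq gives Nr1d1 2 start sites, and the window of the downstream one, at chr10:84229455-84229704, minus strand, held CACGTG at position -191. The upstream window held none of the motifs searched. The downstream window is printed, E-box in capitals, together with the window of Bmal1, the gene that REV-ERB proteins repress, at chr1:176766078-176766327, plus strand. There the hexamer AGGTCA, bound by REV-ERB and ROR receptors, is in capitals, beginning at position -15.
Nr1d1: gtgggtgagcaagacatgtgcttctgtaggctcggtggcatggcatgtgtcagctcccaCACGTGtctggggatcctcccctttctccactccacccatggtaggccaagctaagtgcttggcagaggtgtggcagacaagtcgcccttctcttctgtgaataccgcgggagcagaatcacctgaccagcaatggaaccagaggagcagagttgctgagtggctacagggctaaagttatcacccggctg
Bmal1: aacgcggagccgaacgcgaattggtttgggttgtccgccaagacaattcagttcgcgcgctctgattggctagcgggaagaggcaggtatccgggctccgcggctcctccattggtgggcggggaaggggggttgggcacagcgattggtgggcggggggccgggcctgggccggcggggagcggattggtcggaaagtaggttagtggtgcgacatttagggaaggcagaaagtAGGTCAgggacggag
Of the 10 genes, 9 had a promoter window, 10 windows in all. CACGTG was found in 3 genes (Bhlhe40, Bhlhe41 and Nr1d1), the D-box (TTATGTAA or TTACGTAA) in Per2 alone, AGGTCA in Nr1d2 alone, and the cAMP response element TGACGTCA in 0. Over all windows, on either strand, the D-box was in 0.932%, AGGTCA in 14.1% and TGACGTCA in 1.59%. The absence of a motif says only that these letters are not in these bases.

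The period genes encode the PAS-domain proteins that carry the repressor complex into the nucleus. Per1, which also answers quickly to hormones and stress, was at 7.14 and 6.58 in the lean rats and at 6.33 and 7.03 in the obese rats. The obese rats thus lay on either side of lean rat 2, with a 1.63-fold gap between them that 4.92% of genes exceeded. Its difference was -0.19 ± 0.34, with a 95% confidence interval of -0.97 to 0.60, and was above 0 without lean rat 1 (0.095) or obese rat 1 (0.17). Per2 was at 6.35 and 6.16 in the lean rats and at 6.20 and 6.22 in the obese rats. It varied least of the 3, and its difference of -0.04 ± 0.25 (95% confidence interval -0.61 to 0.53) turned to 0.058 when arrays were centred on their medians. Per3 was at 7.22 and 6.75 in the lean rats and at 6.98 and 7.36 in the obese rats. The groups overlapped, with a difference of 0.18 ± 0.30 (95% confidence interval -0.52 to 0.89). The log2 ratio of Per1 to Per3 was -0.37 in obese against lean rats (SE 0.17), lower in 2 of 2 obese rats than in either lean rat (exact permutation p = 0.333, and 0.667 after adjustment over 6 pairs). The remaining 3 of the 6 pairs (Per1 with Per2, Per2 with Per3, Cry1 with Cry2) overlapped between the groups.

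The cryptochromes are the main repressors of BMAL1 and CLOCK. Cry1 was at 4.94 and 5.18 in the lean rats and at 5.15 and 5.32 in the obese rats, close to the 95th percentile of the chemosensory receptors. Its groups overlapped, and the difference was 0.18 ± 0.23 (95% confidence interval -0.36 to 0.71). Cry2 was at 7.97 and 7.56 in the lean rats and at 8.02 and 8.01 in the obese rats. The groups did not overlap, but lean rat 1 was almost level with the obese rats. The difference of Cry2 was 0.25 ± 0.30 (95% confidence interval -0.44 to 0.93), and it was 0.04 without lean rat 2 and 0.45 without lean rat 1 (adjusted p = 0.964 and 0.289).

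Dbp, a PAR bZIP factor and the standard output of the clock, was at 9.04 and 8.39 in the lean rats and at 8.84 and 8.70 in the obese rats. The obese rats lay between the lean rats. Its difference was 0.05 ± 0.33 (95% confidence interval -0.72 to 0.83) and turned to -0.13 with quantile normalization. Dbp and Nr1d1, which share an E-box drive, did not order the rats alike, since obese rat 1 was the lowest of 4 for Nr1d1 and the second highest for Dbp.

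**Figure D2:**
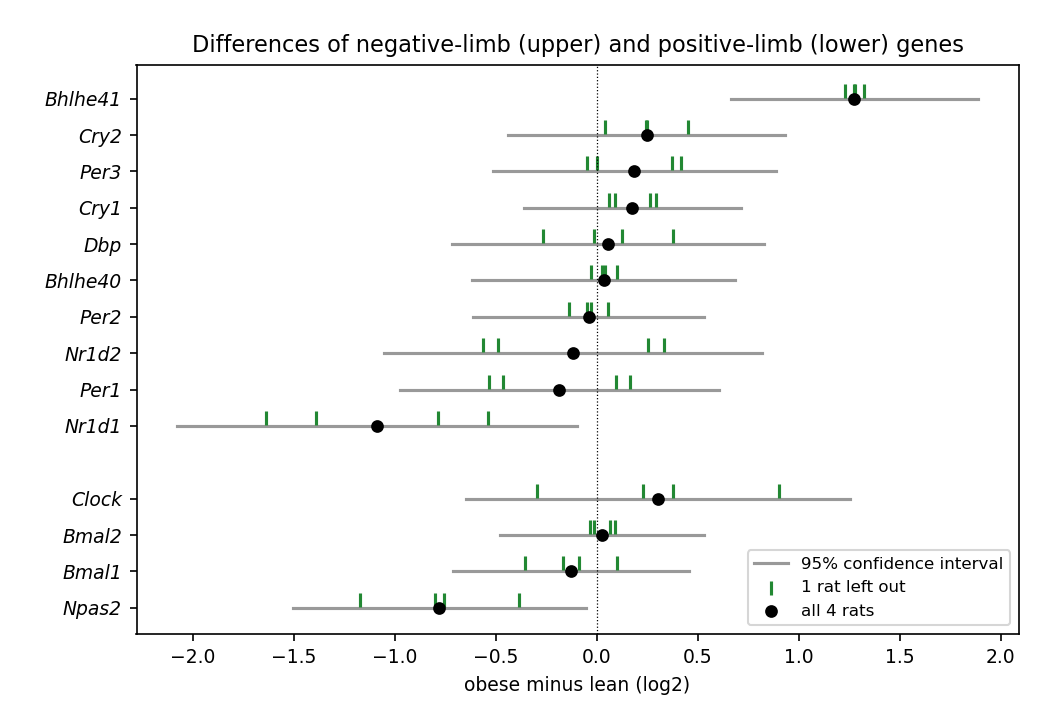
Obese minus lean difference (x axis, log2) of the negative-limb genes (upper block) and the positive-limb genes (lower block), as black points with the 95% confidence interval in grey, and the values with each rat left out in turn as green ticks. The ticks of Bhlhe41 stay between 1.23 and 1.32, whereas those of Nr1d1 run from -1.64 to -0.54 and those of Nr1d2 and Per1 fall on both sides of 0.

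Across the 10 genes, 2 (Bhlhe41 and Cry2) had both obese rats above both lean rats, where 26.4% of all genes did, and 1 (Nr1d1) had both below, where 21.3% did. With only 10 members these counts are near those shares, and they are not read as a difference from all genes. The median size of a difference, without its sign, was 0.18 for the members and 0.29 for all genes. Beside Bhlhe41 and Nr1d1, the 95% confidence intervals of the members reached down to -1.05 (Nr1d2) and up to 0.93 (Cry2), so differences within that range remain possible with 4 arrays.

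Differences between rats of the same group were as wide as those between groups for several members. Lean rat 1 exceeded lean rat 2 in 9 of 10 genes, Cry1 being the exception, against 41.7% of all genes. The same order held in 15 of 17 measured genes that modify or degrade clock proteins. It also held in 9 of 13 output and other clock-linked genes and 2 of 4 positive-limb genes. The order was thus not particular to the members. The chemosensory receptors had a median of 3.43 in lean rat 2 and 2.87 in lean rat 1. The part of dim genes in the 41.7% was not tested. The members' median gap without sign was 0.44 against 0.36 over all genes. Among the members the widest lean gaps were those of Nr1d2, Dbp (1.56-fold), Nr1d1 (1.52-fold) and Per1 (1.48-fold). Obese rat 2 exceeded obese rat 1 in 7 of 10 genes, against 54.2% of all genes. That order held in 12 of 17 regulators of clock proteins and 11 of 13 output and other clock-linked genes. Among the members the gap was 1.29-fold for Per3 and wider for Nr1d1, Nr1d2 and Per1, and 1.13-fold or less for the other 6. The third period gene, Per2, had a gap of 1.02-fold. Muscle markers were higher in lean rat 1 and macrophage markers in obese rat 1. Their part in these gaps was not tested.

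**Figure D3:**
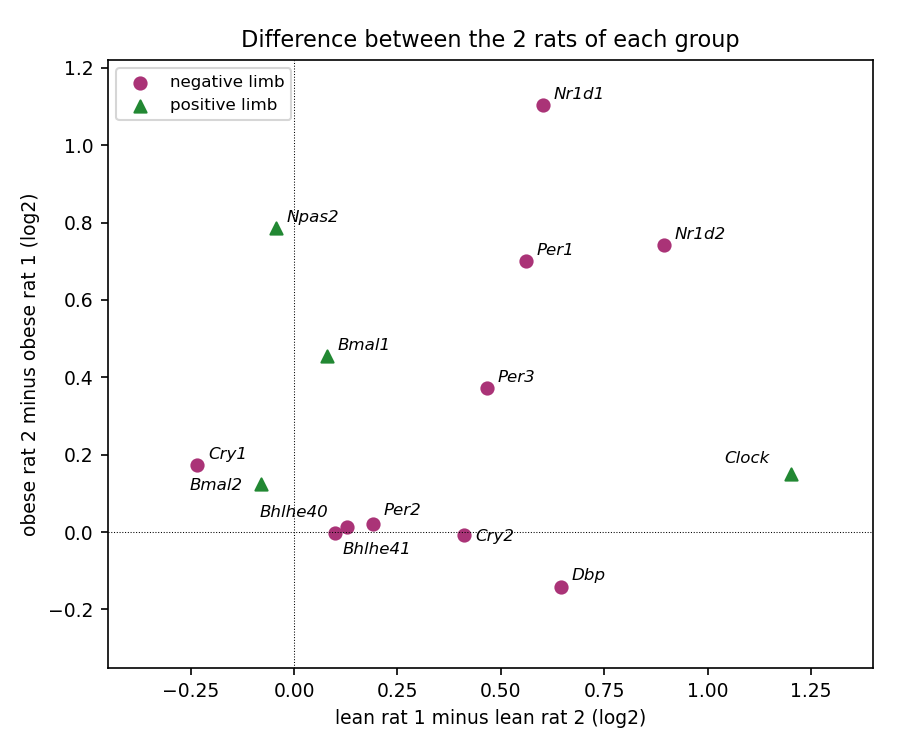
Lean rat 1 minus lean rat 2 (x axis, log2) against obese rat 2 minus obese rat 1 (y axis, log2), with 1 point per gene of the negative limb (circles) and positive limb (triangles). Nr1d1, Nr1d2, Per1 and Per3 are at the upper right, while Bhlhe40, Bhlhe41 and Per2 lie near the origin.

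The positive limb held 7 listed genes, of which 4 were measured, and none passed. At an unadjusted p under 0.05 there was 1, lower, against 15.3% of all genes in either direction. Npas2, which can stand in for CLOCK, was at 6.65 and 6.69 in the lean rats and at 5.50 and 6.28 in the obese rats. The groups did not overlap, with obese rat 1 again the lowest, and the difference was -0.78 ± 0.31 (adjusted p = 0.298, -0.39 without obese rat 1 and -1.17 without obese rat 2). Bmal1, the target of the REV-ERB receptors, was at 5.52 and 5.44 in the lean rats and at 5.13 and 5.58 in the obese rats. Obese rat 1, with the lowest Nr1d1, also had the lowest Bmal1, and the difference was -0.13 ± 0.25 (0.099 without obese rat 1). Clock, the histone acetyltransferase partner of BMAL1, was at 8.21 and 7.01 in the lean rats and at 7.84 and 7.99 in the obese rats. The lean rats enclosed the obese rats, so that its difference of 0.30 ± 0.41 became 0.90 when lean rat 1 was left out (adjusted p = 0.084) and -0.30 when lean rat 2 was (adjusted p = 0.658). Bmal2, a BMAL1 relative, was at 4.50 to 4.63 on all arrays (0.03 ± 0.22).

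Of 15 listed genes that follow the clock or feed back on it, 13 were measured and none passed. None had an unadjusted p under 0.05, against 15.3% of all genes. Their median was -0.06, which turned to 0.099 without lean rat 1 and to 0.086 without obese rat 1. Usp2, a rhythmic ubiquitin protease, was at -0.85 (adjusted p = 0.343) and Nfil3, the repressor that opposes DBP at D-boxes, at -0.54 (adjusted p = 0.344). Nfil3 was at 6.06 and 6.21 in the lean rats and at 5.44 and 5.74 in the obese rats, without overlap. Usp2 was at 6.48 in lean rat 1 against 5.23, 4.97 and 5.04 on the other arrays, so that lean rat 1, the array with the muscle signal, stood apart. Usp2 passed when lean rat 2 was left out (-1.48, adjusted p = 0.020), and it was at -0.23 when lean rat 1 was (adjusted p = 0.456, and up to 0.773 over the 4 rats). Alas1, the rate-limiting enzyme of haem synthesis and a clock target, passed without lean rat 1 (1.81, adjusted p = 0.034, and up to 0.761 over the 4 rats) and was at 1.02 with all rats (adjusted p = 0.369). It was named because of that change of call. Haem is the ligand of the REV-ERB receptors. Tef, a PAR bZIP relative of DBP and likewise named after its values were seen, was at 7.20 and 7.24 in the lean rats and at 7.34 and 7.47 in the obese rats (0.18 ± 0.27).

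Of 23 listed genes that modify or degrade clock proteins, 17 were measured. None passed, and none had an unadjusted p under 0.05, against 15.3% of all genes. The median was 0.06, with 0.11 without lean rat 1 and -0.062 without lean rat 2. Fbxw11, a beta-TrCP ligase subunit that marks PER proteins for destruction, was at 0.57 (adjusted p = 0.440) and Skp1, its adaptor in the same ligase, at 0.50 (adjusted p = 0.502). Casein kinases that phosphorylate PER proteins were in the list as well, and Csnk1d was at 0.30 and Csnk1e at 0.25 (adjusted p = 0.650 and 0.692), named after their values were seen.

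Per1 and Bhlhe40 also respond to acute stimuli, so 2 further lists were read beside them. The share of all genes at an unadjusted p under 0.05 was 15.3%. None of 14 measured immediate-early genes (16 listed) passed, with a median of 0.07 (-0.15 when obese rat 2 was left out, -0.086 when lean rat 1 was) and 4 at an unadjusted p under 0.05, 1 higher and 3 lower. Nr4a3, an orphan nuclear receptor, was at -0.85 (adjusted p = 0.174) and Atf3, a stress-induced factor, at 1.41 (adjusted p = 0.199). Single genes passed in either direction when a rat was left out, and are named because of that change of call. Atf3 passed higher without obese rat 2 (2.03, adjusted p = 0.0063, and up to 0.894 over the 4 rats). Nr4a1, an orphan nuclear receptor like Nr4a3, passed lower without lean rat 2 (-2.19) but was at -0.47 without lean rat 1. Nr4a1 was at 7.81 in lean rat 1, the array with the muscle signal, against 6.09, 5.57 and 5.66 on the other arrays. The zinc-finger factor Egr1 passed lower without lean rat 1 (-1.48) but was at 0.11 without lean rat 2. Egr1 was at 8.89 in lean rat 2 against 7.31, 7.38 and 7.45 on the other arrays. None of 12 glucocorticoid-induced genes passed, with a median of -0.03 (0.15 without lean rat 1) and 4 at an unadjusted p under 0.05, 2 in each direction. The metallothioneins Mt2A and Mt1 were at 1.53 and 1.25 (adjusted p = 0.134 and 0.250), and Mt2A passed higher without lean rat 2 (1.97, adjusted p = 0.037, and up to 0.378 over the 4 rats). The 2 lower were Zbtb16 (-1.11) and Fam107a (-1.08), with limma adjusted p = 0.264 and 0.289. Zbtb16 was named after its values were seen. Fam107a passed lower without obese rat 2 (-1.76) but was at -0.41 without obese rat 1.

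**Figure D4:**
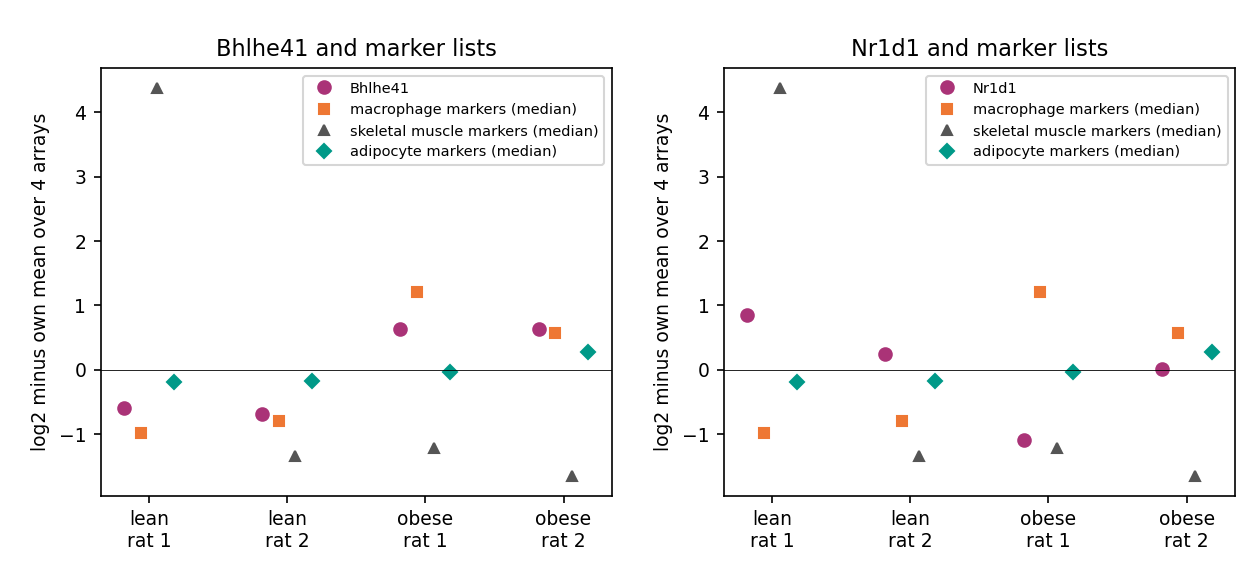
Bhlhe41 (left) and Nr1d1 (right) beside the medians of macrophage, skeletal muscle and adipocyte marker lists on each array, all as log2 values minus the gene's own mean over the 4 arrays (y axis). Bhlhe41 and the macrophage markers are low on both lean arrays and high on both obese arrays, muscle markers are at 4.38 on lean rat 1 and at -1.22 or lower on the others, and Nr1d1 is lowest on obese rat 1.

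Markers of further tissues were read over the same arrays. Mesothelial markers (7 of 9 measured) had a median difference of -1.01, which was -0.55 without lean rat 1 and -1.81 without lean rat 2. Blood markers (3 of 5) were at a median of -1.58 and endothelial markers (8 of 8) at -0.39. None of these passed singly, and 3, 2 and 3 of them respectively had an unadjusted p under 0.05, where 15.3% of all genes did. With a rat left out up to 5 mesothelial markers, 3 blood markers and 1 endothelial marker passed, all lower, and without lean rat 1 the mesothelial and blood counts were 0. Adipocyte markers had a median of 0.26, with none of 12 past limma's adjusted threshold. The 1 with an unadjusted p under 0.05 was Lep, higher at 1.56 (adjusted p = 0.145).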

How the data were processed

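Total RNA of retroperitoneal fat (500 mg, Trizol) was amplified from 100 ng and hybridised to 4 arrays, as the labels' protocols state. The authors deposited 1 linear intensity per row and array. Per the submitters' processing notes RMA was used; its software and version are not given here. RMA usually makes the arrays' distributions equal, but the deposited medians over all rows ran from 39.9 to 44.5 (lean rat 2 highest), so they were not. Intensities were taken to log2 without a pseudocount. Of 29214 rows, 15310 carried exactly 1 symbol in the platform annotation. For 527 genes with several rows the row with the highest mean was kept, giving 14506 genes, none filtered. The clock genes have 1 row each, and all 10 matched RefSeq by gene ID.

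Titles gave the groups, with 1 rat per sample. Obese and lean rats were compared by limma 3.58.1 (R 4.3.3; lmFit, eBayes with trend), with Benjamini-Hochberg adjustment over all genes and a threshold of 0.05. Values from 2 rats per group limit the precision. Limma's SEs, intervals and p-values combine the spread between these rats with a variance shared over genes. Of 7.93 degrees of freedom 2 came from the rats, and the rest from that shared variance. The labels do not pair same-numbered rats. The procedure was tested on simulated data. The members and lists were chosen with earlier results of these data known. All clock genes and positive-limb genes were named, and in other lists the called genes and the 2 smallest p. Promoter sequences are RefSeq's (GRCr8). Figures used matplotlib 3.10.9.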

Additional observations from a re-analysis of the deposited data

How the results depend on the processing

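No clock gene of the negative limb was called under the 9 alternatives that keep all rats. These were other array scaling, other variance models, array weights, leaving out the dimmest 25% of genes, averaged rows, untrimmed rows and replicate block. Bhlhe41 alone changed its call when a rat was left out (lean rat 1). More of all genes were called in each such fit than with all rats, so that call is not read as a result. Among the output and other clock-linked genes too, calls changed only when a rat was left out. Positive-limb genes and regulators of clock proteins gave 0 throughout. The marker, immediate-early and glucocorticoid lists were read with each rat left out, a choice made after seeing the data. With a rat left out 1 group has a single array, whose spread is assumed to equal that of the other group.

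The number of all genes called was 122. It was 75 with quantile normalization, 262 with a robust variance model, 185 over all rows of the table (89 higher and 96 lower), 327 with the rat number as a replicate block, and 268 to 1081 with a rat left out. Deviations of same-numbered rats correlated at 0.020 over genes, so no shift shared by same-numbered rats was seen. A single correlation over genes cannot settle whether the rats were paired. The block changed no call among the clock genes (Bhlhe41, limma adjusted p = 0.072). The members' median lay between -0.09 and 0.21 when rats were left out and between -0.10 and 0.14 otherwise.

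Signs of small differences turned. Per2 was at 0.058 with median centring, and with quantile normalization Dbp was at -0.13 and Bhlhe40 at -0.12. With a rat left out Per1 ran from -0.54 to 0.17, Per2 from -0.14 to 0.055, Per3 from -0.049 to 0.42, Nr1d2 from -0.57 to 0.33, Dbp from -0.27 to 0.38 and Bhlhe40 from -0.031 to 0.097. Bhlhe41, Nr1d1, Cry1 and Cry2 kept their sign in all of these alternatives. Signal near the chemosensory receptors limits what can be read from Cry1 and Bmal2.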
